A study of Mus musculus with 24 samples.

Results

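The replication-dependent histone genes were examined in 24 RNA-seq libraries of C3H 10T1/2, a fibroblast line derived from mouse embryos. All genes whose reference name starts with Hist, a cluster digit from 1 to 4 and h were taken. That gave 70 annotated genes, of which 69 were listed in at least 1 library, among 35197 named genes listed in all. Hist1h2aa was in no library. The 69 genes comprise 6 for linker histone H1, 19 for H2A, 19 for H2B, 12 for H3 and 13 for H4. On the mouse build mm10, 55 lie on chromosome 13, 10 on chromosome 3, 3 on chromosome 11 and 1 on chromosome 6.

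The cells were LncMyoD-KO clone 2, LncMyoD-KO clone 1 and WT, all of strain C3H, with 8 libraries per line. LncMyoD is a long noncoding RNA. Each line was given MyoD adenovirus and an LncMyoD plasmid, MyoD adenovirus alone, the plasmid alone or no treatment, with 2 libraries per group. MyoD is the transcription factor that turns fibroblasts into muscle. Each knockout line is 1 clone, so the knockout and other properties of that clone cannot be told apart. No group received an empty virus or plasmid, so MyoD and infection cannot be told apart. Growth medium with 10% fetal bovine serum was replaced by one with 2% horse serum in the course of transdifferentiation. The labels give this for all 24 libraries alike, so they do not show whether medium differed with MyoD. If it did, MyoD and medium cannot be told apart either. Separate cultures are not named for the replicates in the labels. P-values therefore reflect the spread among these libraries alone, which may be technical. In such bulk samples fewer cells in S phase and less histone RNA per cell cannot be told apart.

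Chromatin is built from nucleosomes with a core of H2A, H2B, H3 and H4, and linker histone H1 binds where DNA enters and leaves the core. The genes described here are switched on during S phase, when new DNA must be packaged. Their mRNAs mostly lack a poly-A tail and end just after a short stem-loop that is bound by the stem-loop binding protein Slbp, although some of these genes also give polyadenylated transcripts. The labels describe the RNA as polyadenylated.

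The stem-loop is the sequence that sets these mRNAs apart. It was searched on the sense strand of the GENCODE vM21 transcripts (build GRCm38, the same as mm10) as the stem GGNNCT, the loop TTTN and the complementary stem AGNNCC, without gaps, and 44 of the 70 genes held it. Among all 58797 annotated coding transcripts 56 held it, or 0.0952%. The commonest form, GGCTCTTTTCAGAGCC, was in 26 genes, and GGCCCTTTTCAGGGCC in 7. The 7 sites below are shown because genes with the same stem-loop moved in opposite directions between lines, and Hist1h4i carries a rarer form. Capitals mark the stem-loop, and the lower case letters are the flanking bases of the annotated transcript.
Hist1h1c: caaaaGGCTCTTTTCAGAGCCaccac
Hist1h1e: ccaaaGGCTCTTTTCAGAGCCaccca
Hist1h2ap: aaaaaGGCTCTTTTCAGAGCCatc
Hist2h3c2: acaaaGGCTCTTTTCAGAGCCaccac
Hist1h4d: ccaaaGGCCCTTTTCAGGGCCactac
Hist1h4h: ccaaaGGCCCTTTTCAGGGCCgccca
Hist1h4i: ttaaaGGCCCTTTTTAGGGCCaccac

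The annotated transcript models differ in where they end, which bears on what the deposited values can count. Of the 70 genes, 22 had a stem-loop and a model that ended within 100 nt after it, and 22 had a stem-loop and a model that went on for more than 100 nt. Another 15 had models that stopped within 30 nt of the stop codon, 8 had a longer 3′ untranslated region without the stem-loop, and 3 were annotated without a coding transcript. Near-identical copies are frequent: 26 of the genes shared at least 50% of their windows of 100 nt with another of them, so reads could be split between copies and single values of those genes are uncertain.

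RefSeq promoters (250 bases before to 50 after the start, build GRCm38.p6) matched 62 of the genes, with 63 promoters. CCAAT, searched on both strands, was in 85.7% of them, against 37.4% of all 32851 promoters, and TATAAA in 55.6%, against 13.6%. ATTTGCAT, the octamer known from H2B promoters, was in 22.2%, against 1.74%. The E-box CANNTG, the kind of site MyoD binds, was in 68.3%, against 72.3%. CCAAT was in 6 of 6 H1, 18 of 18 H2A, 17 of 17 H2B and 10 of 10 H3 promoters, but in 3 of 12 H4 promoters. The octamer was in 7 of 18 H2A and 7 of 17 H2B promoters and in 0 of the H1, H3 and H4 promoters. Shown are the 130 bases before the start of a gene that rose in clone 2 and of the gene that fell most there, with the first 3 of these motifs, on either strand, in capitals. The Hist1h2ac stretch is chr13:23683960-23684089, minus strand, and the Hist1h1a stretch is chr13:23763538-23763667, plus strand.
Hist1h2ac: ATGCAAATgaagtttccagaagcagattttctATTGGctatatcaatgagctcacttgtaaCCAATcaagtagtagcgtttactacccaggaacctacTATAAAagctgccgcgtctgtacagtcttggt
Hist1h1a: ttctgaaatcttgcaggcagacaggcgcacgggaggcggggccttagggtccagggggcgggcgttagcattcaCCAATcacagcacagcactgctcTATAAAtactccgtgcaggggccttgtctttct

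The deposited values are TPM, a transcript's share of a library, and the lines differ in what the rest of the library held. The ribosomal repeat copy on chromosome 17 (39843013 to 39848827) held 2.68% to 7.90% of TPM in clone 2, 36.8% to 69.99% in clone 1 and 55.6% to 69.2% in WT. The share of mitochondrial transcripts was 7.91% to 14.0% in clone 2, 1.32% to 2.20% in clone 1 and 2.06% to 3.84% in WT. Depth was 3.49 to 5.04 gigabases of aligned fragments in clone 2, 2.43 to 5.10 in clone 1 and 4.399 to 5.93 in WT. Named genes with at least 1 TPM numbered 10416 to 13253 in clone 2, 4273 to 5759 in clone 1 and 5449 to 6964 in WT. Because of these gaps, libraries were scaled by the median of ratios over 5091 genes, and "scaled TPM" below means TPM divided by the resulting factor, which was 3.50 to 5.73 in clone 2, 0.320 to 0.442 in clone 1 and 0.417 to 0.706 in WT. Myod1 checked the virus labels: it had at least 265 scaled TPM in the 12 libraries given MyoD and at most 9.97 in the 12 others. The annotated gene at the LncMyoD locus, 1700025L06Rik, was listed in 0 of the 24 libraries, so it checks nothing about the knockout. The 10 fibroblast markers had summed levels of 820 to 2690 scaled TPM in clone 2, 522 to 639 in clone 1 and 631 to 1015 in WT, while all 4 epithelial markers were at 0 throughout. The highest sums of the 4 macrophage and 3 endothelial markers were 5.93 and 4.70 scaled TPM, both in clone 1 with MyoD.

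Whether histone transcripts as a group were higher or lower in clone 2 depended on the scale. As deposited, the 69 genes summed to 1689 to 2382 TPM in clone 2, 174 to 319 TPM in clone 1 and 202 to 311 TPM in WT. Clone 2 stood wholly above both other lines on that scale, with 0.172% to 0.249% of its TPM in these genes, against 0.0230% to 0.0321% in WT. After scaling, the sums were 312 to 621 scaled TPM in clone 2 (median 435), 466 to 722 in clone 1 (median 642) and 375 to 516 in WT (median 416). On the scaled values clone 2 overlapped both other lines when libraries with and without MyoD were pooled. With MyoD the sums were 498 to 621 scaled TPM in clone 2, 466 to 722 in clone 1 and 375 to 413 in WT. Without MyoD they were 312 to 371, 515 to 695 and 420 to 516. Clone 2 thus lay wholly above WT with MyoD and wholly below it without. As deposited, sums with and without MyoD overlapped in clone 2, at 1838 to 2382 TPM and 1689 to 2127 TPM. They also did in WT, at 202 to 255 and 203 to 311 TPM. In the clone 1 library with the lowest ribosomal share, 36.8% (MyoD replicate 1), the histone genes summed to 685 scaled TPM, within the range of the other clone 1 libraries, and Hist1h4d was at 157, its highest value in that clone. The part of the ribosomal share in these levels was not tested.

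**Figure D1:**
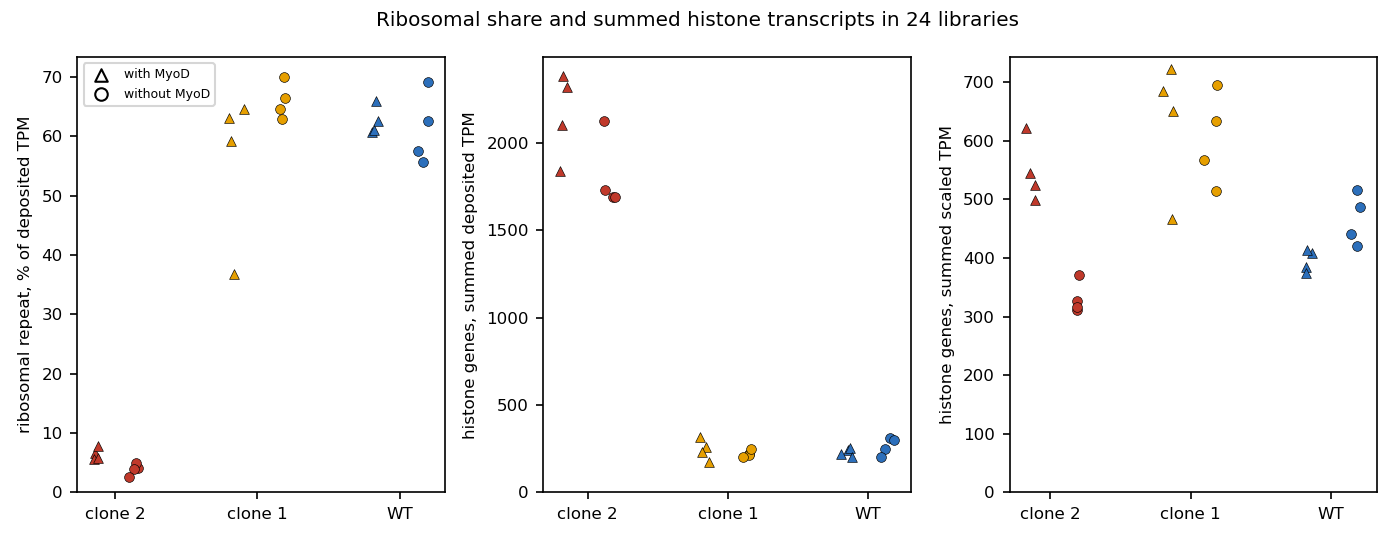
Each symbol is 1 library, triangles with MyoD and circles without. Panels show the percent of deposited TPM at the ribosomal repeat, the summed deposited TPM of the histone genes and their summed scaled TPM, by line. Clone 2 lies at 2.68% to 7.90% ribosomal share and 1689 to 2382 deposited TPM, apart from clone 1 and WT, while the scaled sums of the 3 lines overlap.

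The makeup of the histone transcripts differed between lines, and this does not depend on scaling since it is a share within each library. H2A genes held 16.3% to 32.1% of the summed histone TPM in clone 2, 4.91% to 10.5% in clone 1 and 8.28% to 13.4% in WT. H2B genes held 29.9% to 42.1% in clone 2, 9.87% to 15.4% in clone 1 and 11.9% to 16.4% in WT. Both shares in clone 2 lay wholly above those of the other lines. The H2A share includes Hist1h2al, annotated as a processed pseudogene. It held 5.83% to 8.81% of histone TPM in clone 2, 1.27% to 2.98% in clone 1 and 2.20% to 4.26% in WT. H4 genes held 13.7% to 20.5% in clone 2, 48.3% to 58.8% in clone 1 and 33.6% to 46.2% in WT, and H3 genes 2.64% to 4.11% in clone 2, 6.96% to 10.3% in clone 1 and 8.29% to 13.3% in WT. Both shares in clone 2 lay wholly below those of the other lines, and the H4 share of clone 1 lay wholly above that of WT. H1 genes held 13.7% to 20.0% in clone 2, 17.1% to 22.5% in clone 1 and 18.7% to 32.4% in WT, with overlap.

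The order of the single genes differed as well. By median scaled TPM the leading genes in clone 2 were Hist1h2bc (93.2), Hist1h1c (70.6), Hist1h4i (33.9), Hist1h2al (32.4) and Hist1h2bg (31.7). In clone 1 they were Hist1h4n (121), Hist1h4d (115), Hist1h1c (39.7), Hist1h1a (22.6) and Hist1h1b (22.3), and in WT Hist1h4d (79.3), Hist1h4n (51.1), Hist1h1a (33.7), Hist1h1c (31.6) and Hist1h1b (24.7). Many ranges overlap: in clone 2 Hist1h4i (19.1 to 46.7), Hist1h2al (19.8 to 49.7) and Hist1h2bg (3.10 to 38.8) cannot be ordered beyond their spread, nor can Hist1h4n and Hist1h4d in clone 1. Hist1h4d and Hist1h4n together form most of the H4 level in clone 1 and WT, with Hist1h4d alone at 15.7% to 23.0% and 14.7% to 21.3% of histone TPM there, against 0.649% to 1.13% in clone 2.

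**Figure D2:**
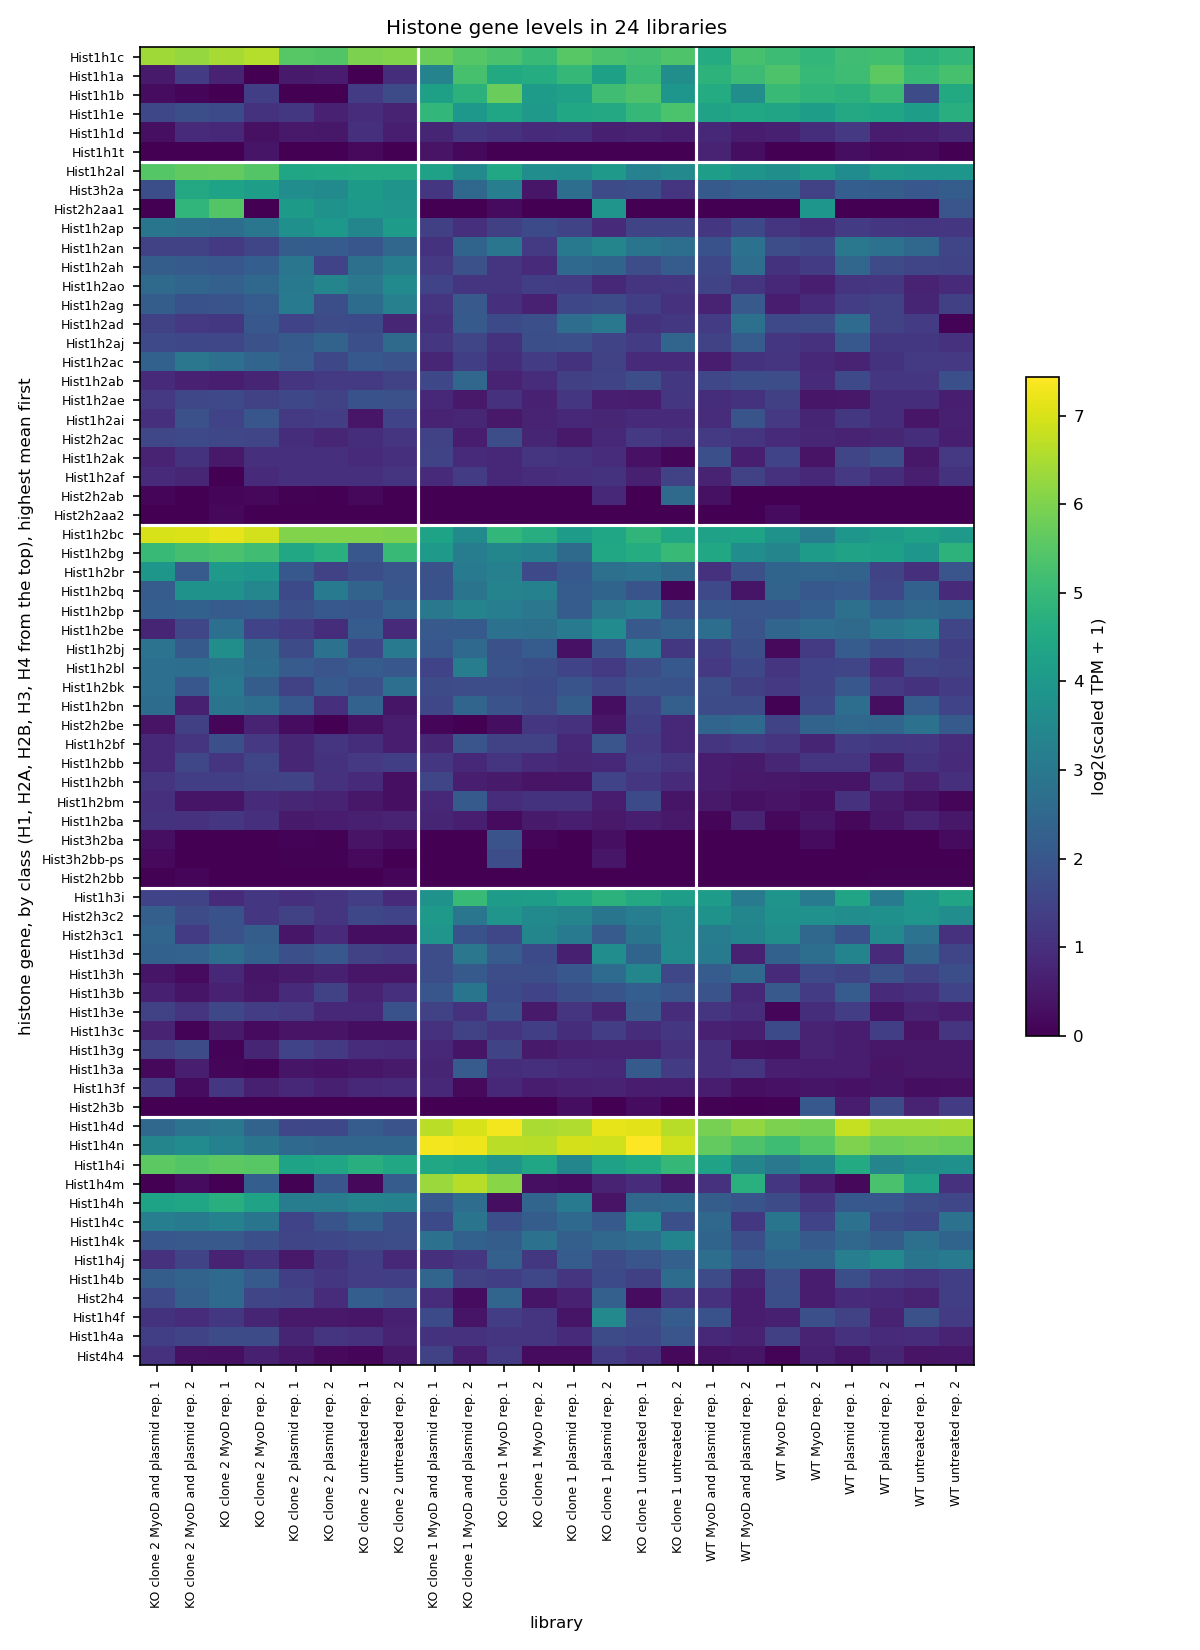
Rows are the 69 histone genes by class, with the highest mean first in each class. Columns are the 24 libraries, with clone 2 on the left, clone 1 in the middle and WT on the right, and colour is log2(scaled TPM + 1). Hist1h2bc, at 61.8 to 142 scaled TPM, is the brightest row of clone 2, and Hist1h4d and Hist1h4n are the brightest rows of clone 1 and WT.

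For tests between lines, genes with at least 1 scaled TPM in at least 2 libraries were fitted with limma on log2(scaled TPM + 1) and a gene was called where its Benjamini-Hochberg adjusted p was under 0.05 and its log2 change was 1 or more, up or down. Of the 69 histone genes 63 passed this filter. The 6 that did not were Hist2h2bb, Hist2h2aa2, Hist3h2ba, Hist1h1t, Hist3h2bb-ps and Hist2h2ab, and the second-highest value nearest the limit was 0.820 for Hist2h2ab outside it and 1.13 for Hist1h2ba inside it. In clone 2 against WT 25 of the 63 were called (39.7%), 14 higher and 11 lower, while 36.4% of all 16833 genes tested were called, 23.2% higher and 13.2% lower. The share of histone genes called was thus near that of all genes. The median log2 change was 0.35 over the histone genes and -0.01 over all genes. With TPM as deposited, which moves the median of all genes by 1.36, 48 histone genes were called higher and 3 lower, the 3 being Hist1h1a, Hist1h1b and Hist1h4d, and with quantile normalization 9 higher and 12 lower. Here and below, counts on other scales are given without the share of all genes called on that scale. They therefore do not set the histone genes apart from other genes. In 8 histone genes all clone 2 libraries lay above all WT libraries, and in 10 below; over all genes tested the shares were 16.6% and 9.68%.

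Of the 5 tested linker histone genes 3 fell and 1 rose in clone 2 against WT, with a median log2 change of -3.16, where 13.2% of all genes were called lower and 23.2% higher. Hist1h1a had 0, 0.486 and 1.47 scaled TPM as lowest, median and highest in clone 2, against 27.0, 33.7 and 46.0 in WT (log2 change -4.58 ± 0.291 SE, adjusted p = 1.49e-09). Its deposited coverage per base, which is not normalized, had a median of 4.51 in clone 2 and 67.2 in WT, without overlap. Of the 10 genes wholly lower in clone 2 on scaled TPM, coverage was also wholly lower in 3, Hist1h1a, Hist1h1e and Hist1h4d, and overlapped in 7, among them Hist1h1b and Hist1h4n. Hist1h1b was at 0.000564 to 2.22 scaled TPM in clone 2 (median 0.125) and at 2.32 to 32.4 in WT (median 24.7), with a log2 change of -3.69 ± 0.384 SE. The lowest WT library of Hist1h1b, at 2.32, lay close to the highest clone 2 library. Hist1h1e was at 0.599 to 2.43 scaled TPM in clone 2 and 16.7 to 24.6 in WT, a log2 change of -3.16 ± 0.178 SE. On scaled TPM the groups do not overlap in these 3 genes. Hist1h1c rose: it was at 41.8, 70.6 and 97.7 scaled TPM in clone 2, against 22.9, 31.6 and 37.9 in WT (log2 change 1.09 ± 0.118 SE, adjusted p = 8.93e-07), again without overlap. Hist1h1d, the remaining tested gene of the class, had a log2 change of -0.15 and did not pass. Hist1h1a and Hist1h1b were also called lower with TPM as deposited, by -2.81 and -2.186, while Hist1h1e was not.

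H2A is the core histone that pairs with H2B. Of 17 tested H2A genes 7 rose, 0 fell and 10 were not called, with log2 changes of -0.47 to 2.52 and a median of 0.62, where 23.2% of all genes were called higher and 13.2% lower. Under the other 4 scalings 5 to 17 were called higher and 0 lower. Hist1h2ap was at 5.44, 8.12 and 16.1 scaled TPM in clone 2 and at 0.956, 1.25 and 2.05 in WT (log2 change 2.102 ± 0.171 SE). Hist1h2ao was at 3.90 to 10.9 scaled TPM in clone 2 and 0.533 to 1.87 in WT (1.84 ± 0.167 SE), and Hist1h2ac at 2.03 to 6.71 in clone 2 and 0.519 to 1.41 in WT (1.27 ± 0.181 SE). All 3 lay wholly above WT. Hist1h2al, annotated as a processed pseudogene, was at 19.8 to 49.7 scaled TPM in clone 2 and 11.3 to 16.8 in WT. Hist3h2a and Hist1h2ag rose with overlapping groups, by log2 changes of 1.63 and 1.21. Hist1h2ap, Hist1h2ao and Hist1h2ag share 92.2%, 92.7% and 76.2% of their windows with another of these genes, against 7.68% for Hist1h2ac. The rises of the first 3 may therefore not be separate. Hist2h2aa1 (log2 change 2.52 ± 0.852 SE) was listed at 0 in 2 of the 8 clone 2 libraries and reached 14.1 scaled TPM in a WT library, and 88.1% of its windows are shared with another of these genes.

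Of 16 tested H2B genes 4 rose and 1 fell, against 23.2% higher and 13.2% lower among all genes, with a median log2 change of 0.47. With quantile normalization 1 of 16 was higher and 2 lower. Hist1h2bc was at 61.8, 93.2 and 142 scaled TPM in clone 2, at 10.5, 20.1 and 29.5 in clone 1 and at 7.97, 15.4 and 19.0 in WT. Every clone 2 library lay above every library of the other lines, and the log2 change against WT was 2.55 ± 0.146 SE (adjusted p = 3.89e-10). Its model has a 3′ untranslated region of 742 nt in which the stem-loop was not found. Hist1h2bl rose by a log2 change of 1.04 without overlap, and Hist1h2bj and Hist1h2bq by 1.08 and 1.12 with overlap. Depending on the model, 94.6% to 100% of the windows of Hist1h2bq are shared with other genes of the family, and 62.1% of those of Hist1h2bl. Hist2h2be, a variant gene known in mouse from olfactory neurons, was at 0 to 1.63 scaled TPM in clone 2 and 1.87 to 6.05 in WT, and fell by 1.87 ± 0.229 SE on the log2 scale.

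H3 and H4 form the tetramer at the centre of the nucleosome. Of 12 tested H3 genes 4 fell and 0 rose, against 13.2% lower and 23.2% higher among all genes, with a median log2 change of -0.60. Hist1h3i was at 0.855 to 1.90 scaled TPM in clone 2 and 7.36 to 19.4 in WT (log2 change -2.54 ± 0.240 SE). Hist2h3c2 was at 1.19 to 3.73 in clone 2 and 9.64 to 13.7 in WT (-2.13 ± 0.194 SE). Neither overlapped, while Hist2h3c1 (-1.54) did. Hist1h3h fell by 1.24 without overlap. Hist1h3h, Hist1h3i and Hist2h3c2 share 92.0%, 68.6% and 61.6% of their windows with another of these genes, against 32.9% for Hist2h3c1. Single values of the first 3 are therefore uncertain. Hist1h3h, Hist2h3c1 and Hist2h3c2 had positive log2 changes with TPM as deposited. With TPM as deposited the H3 direction flipped, with 5 of 12 called higher, 0 lower and a median of 0.66, below the median of 1.36 over all genes on that scale.

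Of 13 tested H4 genes 3 fell and 2 rose, against 13.2% lower and 23.2% higher among all genes, with a median log2 change of 0.02. With TPM as deposited 1 was lower and 9 were higher. Hist1h4d (chromosome 13, 23581598 to 23582735, plus strand) was at 2.02, 3.80 and 6.94 scaled TPM in clone 2, at 89.1, 115 and 157 in clone 1 and at 58.0, 79.3 and 110 in WT. The clone 2 libraries lay far below both other lines, with a log2 change against WT of -4.02 ± 0.160 SE (adjusted p = 4.84e-12), and none of its windows is shared with another of these genes. Hist1h4n was at 4.35 to 11.1 scaled TPM in clone 2 and 34.1 to 63.8 in WT (-2.76 ± 0.122 SE). With TPM as deposited the direction turned, with a log2 change of 0.065 that did not pass. Hist1h4m is a near copy of Hist1h4n, and their sum was 4.54 to 11.3 scaled TPM in clone 2 and 35.4 to 90.8 in WT, without overlap. As deposited the sum was 23.5 to 48.0 TPM in clone 2 and 22.2 to 44.2 TPM in WT, with overlap. Hist1h4j was at 0.417 to 1.91 scaled TPM in clone 2 and 3.17 to 10.4 in WT, and fell by 1.75 ± 0.206 SE on the log2 scale, against a change of 0.37 that did not pass with TPM as deposited. Hist1h4h rose to 7.73, 13.9 and 24.6 scaled TPM in clone 2, against 1.28, 2.59 and 3.55 in WT (2.02 ± 0.343 SE), and Hist1h4i rose by 1.31 ± 0.200 SE with overlapping groups. Hist1h4d and Hist1h4h thus moved in opposite directions with the same stem-loop, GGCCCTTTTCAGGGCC.

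**Figure D3:**
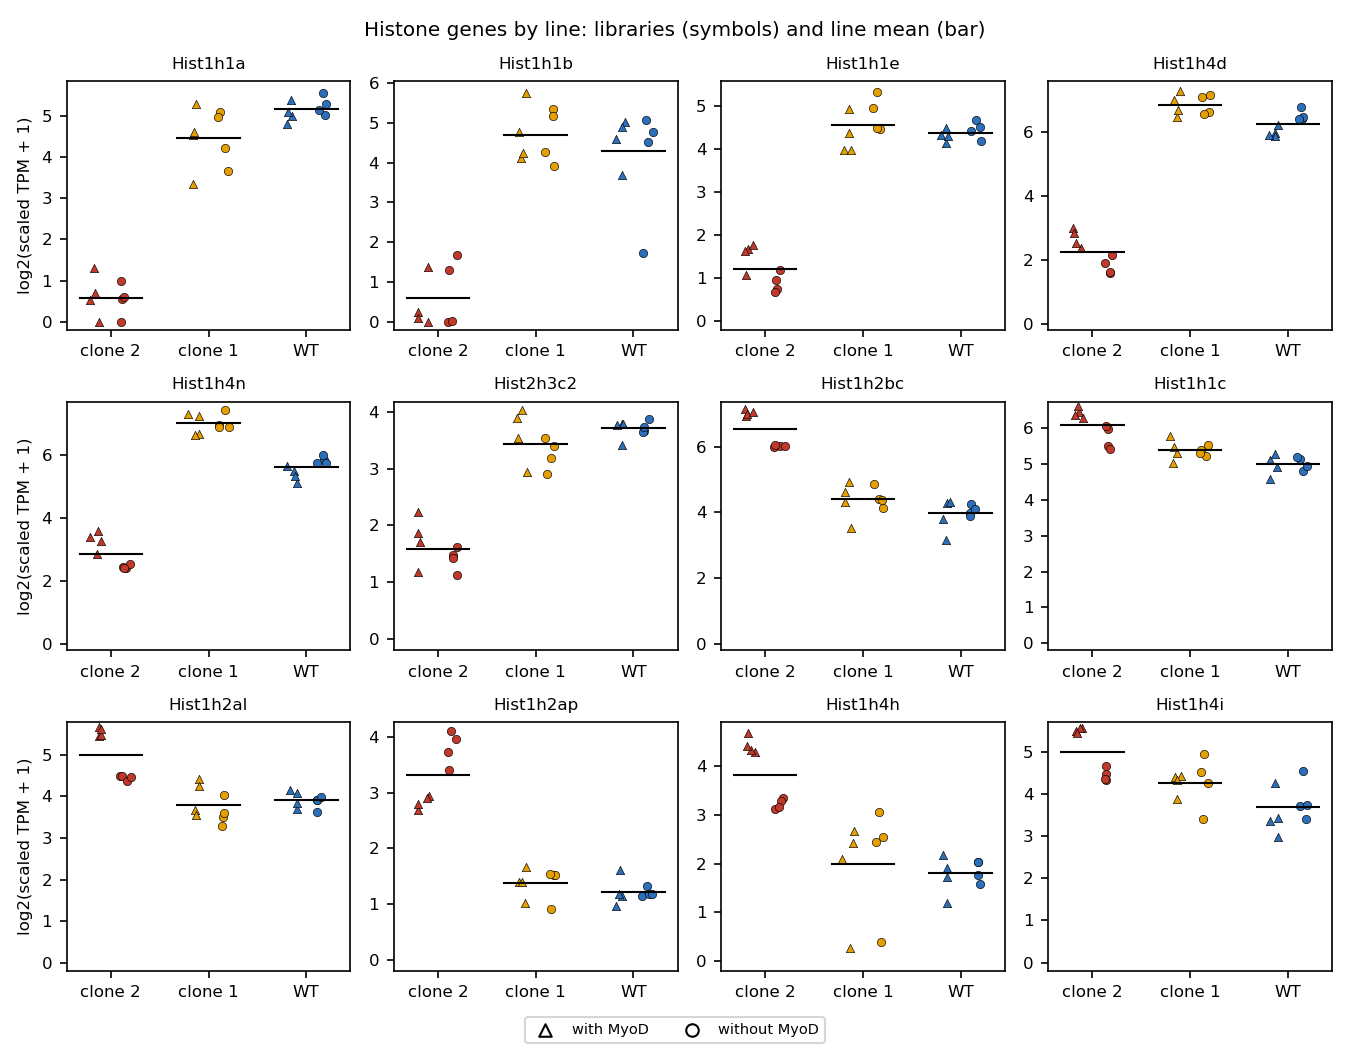
Each symbol is 1 library on a log2(scaled TPM + 1) axis, triangles with MyoD and circles without, and bars are line means of the 8 libraries. Hist1h1a, Hist1h1b, Hist1h1e, Hist1h4d, Hist1h4n and Hist2h3c2 are lowest in clone 2, and Hist1h2bc, Hist1h1c, Hist1h2al, Hist1h2ap, Hist1h4h and Hist1h4i have their highest mean there.

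Genes that rose and genes that fell were found with and without an annotated stem-loop. Over all genes tested 23.2% were called higher and 13.2% lower in clone 2 against WT. Among 21 tested genes whose model ends soon after a stem-loop, 6 rose and 1 fell in clone 2 against WT (median log2 change 0.19). Among 20 whose model goes on, 4 rose and 5 fell (median 0.40), and among 12 whose model stops at the stop codon, 1 rose and 3 fell (median -0.21). Of 8 with a longer end and no stem-loop, 2 rose, Hist1h2bc and Hist1h2bq, and 2 fell, Hist1h1a and Hist2h2be (median 0.44). The poly-A signal AATAAA was found in the last 40 nt of a model in 3 of the 14 risen genes, 3 of the 11 fallen genes and 6 of the 38 others. At least 50% of windows were shared with another of these genes in 6 of the 14 risen, 4 of the 11 fallen and 15 of the 38 others.

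In clone 1 against WT few histone genes differed. Of 63 tested, 3 were called (4.76%), against 6.41% of all genes, with 1 higher and 2 lower, against 1.28% and 5.13% of all genes, and the median log2 change was 0.21. In 1 histone gene all clone 1 libraries lay above all WT libraries and in 1 below, against 0.582% and 1.35% of all genes. Hist1h4n rose to 99.7 to 173 scaled TPM in clone 1, against 34.1 to 63.8 in WT (1.39 ± 0.122 SE, adjusted p = 1.82e-06), and its sum with Hist1h4m was 99.98 to 252 in clone 1 and 35.4 to 90.8 in WT. The groups do not overlap on either measure. Hist2h2be fell to 0 to 1.60 scaled TPM in clone 1, against 1.87 to 6.05 in WT (-1.68 ± 0.229 SE, adjusted p = 0.000205). Hist1h4j was at 1.00 to 3.91 scaled TPM in clone 1 and 3.17 to 10.4 in WT and fell by 1.05 ± 0.206 SE (adjusted p = 0.00367), with overlap. Hist2h2be and Hist1h4j were called lower in both clones on scaled TPM, in comparisons that share the WT libraries. With TPM as deposited both were called lower in clone 1, while in clone 2 neither passed, with log2 changes of -0.42 for Hist2h2be and 0.37 for Hist1h4j.

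Set against clone 1, clone 2 had 20 of 63 histone genes called (31.7%), 9 higher and 11 lower, against 38% of all genes, 26.3% higher and 11.7% lower. In 6 genes all clone 2 libraries lay above all clone 1 libraries and in 12 below, against 16.7% and 6.84% of all genes. With TPM as deposited 50 were higher and 3 lower, and with quantile normalization 7 higher and 15 lower, again without the share of all genes on those scales. Hist1h4d (log2 change -4.62), Hist1h4n (-4.14), Hist1h1b (-4.10), Hist1h1a (-3.88), Hist1h1e (-3.34) and Hist1h3i (-3.18) were lowest in clone 2, and Hist2h2aa1 (2.75) and Hist1h2bc (2.13) highest. Of H2A genes 7 of 17 rose and 0 fell, and of H3 genes 0 of 12 rose and 5 fell; with TPM as deposited 6 H3 genes were higher and 0 lower.

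**Figure D4:**
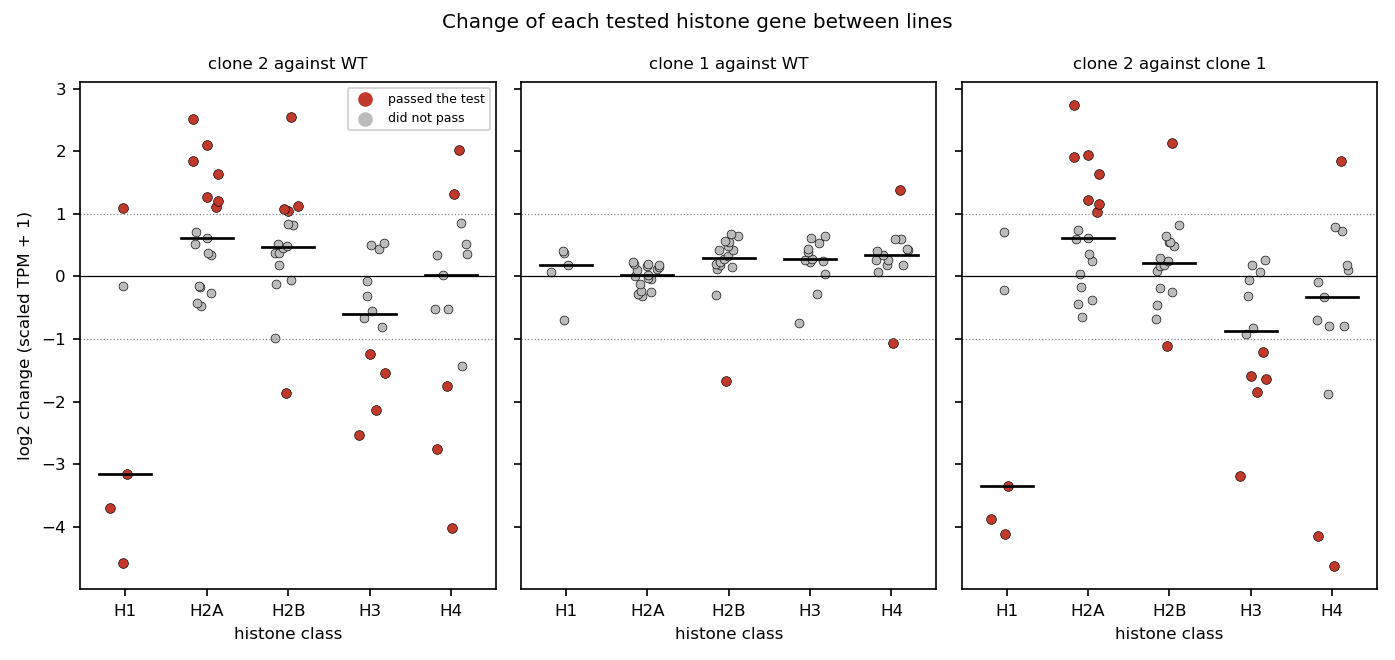
Each point is 1 of the 63 tested histone genes, with its log2 change on the vertical axis and its class on the horizontal axis, for clone 2 against WT, clone 1 against WT and clone 2 against clone 1. Red points passed the test, black bars are class medians and dotted lines mark a log2 change of 1 in size. In clone 2 against WT the called H2A genes lie above 0 and the called H3 genes below, and in clone 1 against WT 3 genes are red.

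Other classes of transcript also differed between the lines, where 23.2% of all genes tested were higher and 13.2% lower in clone 2 than in WT. Of 10 tested replication-independent histone genes, whose mRNAs carry a poly-A tail, 7 rose and 0 fell in clone 2 against WT (median log2 change 1.57). H3f3b was at 348 to 425 scaled TPM in clone 2 and 34.8 to 56.0 in WT (2.97 ± 0.115 SE), and H2afz at 46.0 to 68.4 in clone 2 and 0.0528 to 4.88 in WT (3.81 ± 0.408 SE). H2afx, a variant whose gene also gives a stem-loop mRNA, had a log2 change of -0.78 and did not pass. Of 5 tested noncoding RNAs without a poly-A tail 0 rose and 3 fell (median -4.73), among them Rn7sk at 1.29 to 3.03 scaled TPM in clone 2 and 52.2 to 96.9 in WT. Of 25 tested S phase genes 12 rose and 1 fell (median 0.97), with the sliding clamp gene Pcna up by 3.84 ± 0.214 SE and the helicase gene Mcm7, named because it alone fell, at -2.190 ± 0.355 SE. Of 15 tested genes of histone transcription and mRNA 3′ end formation 6 rose and 0 fell, with Slbp at 12.1 to 20.5 scaled TPM in clone 2 and 4.52 to 8.84 in WT (1.40 ± 0.262 SE) and Npat, a coactivator of histone genes, at a log2 change of 0.04 that did not pass. Of 21 histone chaperone and assembly genes 12 rose and 1 fell. The part of these differences in the histone gene levels was not tested.

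In clone 1 against WT, where 1.28% of all genes were higher and 5.13% lower, the same lists gave 0 of 10 higher and 1 lower for replication-independent histones, 0 and 0 of 5 for the noncoding RNAs, 0 and 7 of 25 for S phase genes (median -0.65), 0 and 2 of 15 for 3′ end genes and 0 and 2 of 21 for chaperones. Fewer of these genes were listed above 0 in clone 1: 22 of 30 S phase genes with MyoD and 23 without, against 29 and 26 in WT. For 3′ end genes it was 11 and 11 of 19, against 14 and 13, and for chaperones 18 and 17 of 21, against 21 and 21. Unlisted genes count as 0, and their part in the falls was not tested. Slbp fell by 1.12 ± 0.262 SE in clone 1 (adjusted p = 0.0118), with 0.438 to 7.51 scaled TPM, against 4.52 to 8.84 in WT.

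With MyoD, 4 histone genes rose in clone 2, while 0 were called in clone 1 and 0 in WT. The 4 are 6.35% of the 63 tested in clone 2, against 3.95% of all genes, 1.66% higher and 2.29% lower, and the median log2 change of the histone genes was 0.30. Hist1h2bc was at 142, 122, 127 and 130 scaled TPM with MyoD and at 64.5, 61.8, 64.5 and 64.0 without (1.02 ± 0.206 SE, adjusted p = 0.00637). Hist1h2al was at 49.7, 43.2, 43.7 and 48.1 with MyoD and at 21.4, 21.6, 19.8 and 21.2 without (1.10 ± 0.223 SE, adjusted p = 0.00659). Hist1h4i was at 46.3, 44.8, 46.7 and 43.1 with MyoD and at 24.7, 21.2, 19.1 and 19.7 without (1.07 ± 0.283 SE, adjusted p = 0.0329). The groups lay well apart in each of these 3 genes. Hist1h2br was at 15.2, 13.9, 14.4 and 3.40 scaled TPM with MyoD and at 2.48, 2.87, 3.17 and 1.77 without (1.68 ± 0.446 SE, adjusted p = 0.0329), so that 1 library with MyoD lay just above those without. Up to 100% of the windows of its models are shared with other genes of the family, so reads could be split between copies. Hist1h2bq, whose windows are also shared, was at 13.3, 9.96, 3.51 and 12.9 in the same 4 libraries with MyoD.

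These 4 calls depended on the library scale, which itself moved with MyoD in clone 2: scale factors were 3.50 to 4.25 with MyoD and 5.17 to 5.73 without. The ribosomal share was 5.62% to 7.90% with MyoD and 2.68% to 4.91% without, and their part in the calls was not tested. With TPM as deposited, which moves the median of all genes by -0.33, 2 histone genes were called higher, Hist1h2br and Hist2h3c1, and 8 lower, of which 7 were H2A genes and 1 was Hist1h3b. The share of all genes called on that scale is not given here. With TPM rescaled without ribosomal, mitochondrial and unnamed transcripts 0 were called. The count was 1 without MyoD replicate 1 of clone 2, and 2 without either plasmid replicate or without MyoD and plasmid replicate 1.

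Shares within libraries do not depend on the scale, and in clone 2 those of H2A were lower and those of H4 and H2B higher with MyoD. H2A genes held 16.3% to 24.9% of histone TPM with MyoD and 29.4% to 32.1% without, and H4 genes 18.1% to 20.5% with MyoD and 13.7% to 17.3% without. H2B genes held 38.5% to 42.1% with MyoD and 29.9% to 38.2% without. None of these ranges overlap. The summed level of the H2A genes did overlap, at 81.2 to 144 scaled TPM with MyoD (median 118) and 92.7 to 115 without (median 98.8). On scaled TPM, all 4 libraries with MyoD lay above all 4 without in 20 histone genes and below in 6, against 13.2% and 9.64% of all genes tested. Among the 20, Hist1h2ba reached 1 scaled TPM in these 4 libraries with MyoD alone, so it passed the filter only through them. Of those 6, 5 were H2A genes, among them Hist1h2ap at 5.44, 6.63, 6.47 and 5.95 scaled TPM with MyoD and 9.61, 16.1, 12.3 and 14.6 without (-0.97 ± 0.241 SE, adjusted p = 0.0227), which missed the limit of 1 on the log2 change. Beside this, the 30 S phase genes summed to 82.9 to 107 scaled TPM with MyoD and 144 to 157 without, with 0 of 25 tested called, and 8 muscle markers to 127 to 271 with MyoD and 0.467 to 0.814 without. The 10 fibroblast markers summed to 820 to 1066 with MyoD and 1675 to 2690 without. Myod1 itself was at 265 to 303 scaled TPM with MyoD in clone 2, against 4423 to 8242 in clone 1 and 5493 to 7501 in WT. This gap is smaller with TPM as deposited, since scale factors with MyoD were 3.50 to 4.25, 0.351 to 0.442 and 0.488 to 0.680. The part of these differences in the histone shares was not tested.

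In clone 1 with MyoD 0 of 63 histone genes were called by limma, against 1.47% of all genes (0.784% higher, 0.683% lower), with 4 at an unadjusted p under 0.05. The largest change was Hist1h4m, with a log2 change of 4.26 (adjusted p = 0.113), whose sum with its near copy Hist1h4n was 99.98 to 252 scaled TPM with MyoD and 119 to 174 without, so the groups overlap. In WT with MyoD 0 were called, against 0.255% of all genes (0.22% higher, 0.0356% lower), with 3 at an unadjusted p under 0.05. Hist1h4d was at 61.9, 58.0, 59.8 and 74.3 scaled TPM with MyoD and 84.6, 88.0, 110 and 84.4 without in WT, apart from each other but with an adjusted p of 0.789 (log2 change -0.52 ± 0.226 SE). Over all histone genes in WT, 4 had all libraries with MyoD below those without and 0 above, against 1.09% and 1.43% of all genes. The H4 share of histone TPM in WT was 33.6% to 39.1% with MyoD and 40.9% to 46.2% without.

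The response to MyoD differed between clone 2 and WT in 3 histone genes of 63, all with a higher response in clone 2. They are 4.76% of the histone genes tested, against 1.68% of all genes, 0.653% with a higher response and 1.02% with a lower one. They were Hist1h4d, with a difference of log2 changes of 1.38 ± 0.320 SE (adjusted p = 0.0366), Hist1h4n, with 1.26 ± 0.243 SE (adjusted p = 0.0127), and Hist1h2bc, with 1.19 ± 0.291 SE (adjusted p = 0.0483). Summed with its near copy Hist1h4m, Hist1h4n overlapped in WT between libraries with MyoD and without. Between clone 1 and WT 0 histone genes differed in response, against 0.333% of all genes (0.143% higher, 0.19% lower), with 2 at an unadjusted p under 0.05. The count for clone 2 was 0 with TPM rescaled without ribosomal, mitochondrial and unnamed transcripts, and 3 H2A genes were called with a lower response in its place with TPM as deposited.

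**Figure D5:**
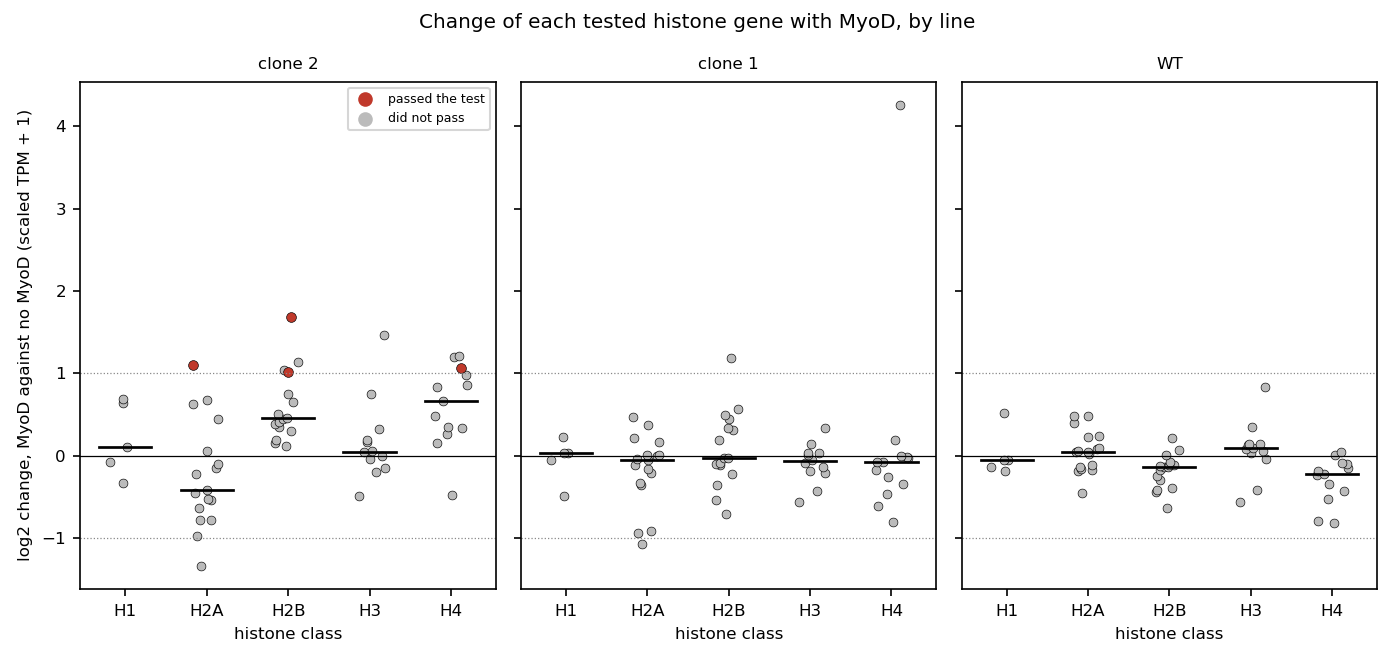
Each point is 1 of the 63 tested histone genes, with its log2 change with MyoD against no MyoD on the vertical axis and its class on the horizontal axis, for clone 2, clone 1 and WT. Red points passed the test and black bars are class medians. The H2A median of clone 2 is -0.41 and its H4 median 0.67, and the 4 red points are all in clone 2.

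The LncMyoD plasmid called no histone gene. Over the 12 libraries with it and the 12 without, limma called 0 of 63 histone genes and 0% of all 16833 genes, with 1 histone gene and 1067 genes at an unadjusted p under 0.05. The median log2 change of the histone genes was -0.01.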

How the data were processed

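Per the labels' protocols, a SMART-Seq cDNA kit for small RNA amounts, which keeps no strand, and paired reads of 100 nt were used. Tools named in the submitters' processing notes are StringTie 1.3.3, HISAT2 2.1.0, SAMtools 1.3, Trimmomatic 0.36 and bcl2fastq 2.19, with the build mm10. Per the file headers, StringTie 2.1.2 was run with the GENCODE vM21 annotation as guide, which differs from the notes in version. The deposited values per transcript are TPM, FPKM and coverage, one file per library, without read counts, so the depth behind single values is unknown.

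Transcript TPM values were added up per named gene, and libraries were scaled by the median of ratios. Genes with no listed transcript were set to 0, possibly because assembly failed. Transcripts without a reference gene (17.5% to 72.6% of TPM) were left out, except in 1 alternative that gives them to genes by overlap; 4 to 25 per library overlapped histone genes. All 35260 gene identifiers matched vM21. Tests used limma 3.58.1 in R 4.3.3 with a variance trend on log2(scaled TPM + 1), 12 group means over 24 libraries and 12 residual degrees of freedom, with adjustment over all 16833 genes tested; fold changes on this scale understate low genes. No paralog was merged, other than the sum of Hist1h4m and Hist1h4n. The naming rule took up to 4 genes per class by mean level, up to 8 called genes per direction and comparison, genes above 0 in all 24 libraries, and up to 3 called genes per other list. The script was tested on simulated data.

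The genes, gene lists and tests were chosen with earlier results of these data known. The alternatives were deposited TPM, rescaled TPM, quantile normalization, added unnamed transcripts, pseudocounts of 0.1 and 5, other filters, no minimum change, library weights, no variance trend, subsets of groups, a replicate block and leaving out each library.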

Additional observations from a re-analysis of the deposited data

Results flagged for a closer look

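In 3 histone genes the response to MyoD differed between clone 2 and WT in the test of the difference itself (limma, adjusted over all genes tested). For Hist1h4d the response was 0.86 ± 0.226 SE in clone 2 and -0.52 ± 0.226 SE in WT, a difference of 1.38 on the log2 scale (adjusted p = 0.0366), with MyoD libraries above those without in clone 2 (4 of 4) and below in WT (4 of 4). For Hist1h4n it was 0.83 ± 0.172 SE in clone 2 and -0.43 ± 0.172 SE in WT, a difference of 1.26 (adjusted p = 0.0127), again with 4 of 4 above in clone 2 and 4 of 4 below in WT. For Hist1h2bc it was 1.02 ± 0.206 SE in clone 2 and -0.17 ± 0.206 SE in WT, a difference of 1.19 (adjusted p = 0.0483), with 4 of 4 above in clone 2. These separations are on scaled TPM, whose factors moved with MyoD in clone 2 (3.50 to 4.25 with, 5.17 to 5.73 without). As deposited, libraries with and without MyoD overlapped for Hist1h4d and Hist1h4n in both lines, while Hist1h2bc stayed apart in clone 2. Summed with its near copy Hist1h4m, Hist1h4n was at 35.4 to 65.5 scaled TPM in WT with MyoD and 54.3 to 90.8 without, with overlap. In clone 2 the sum was 8.73 to 11.3 with MyoD and 4.54 to 7.86 without. The difference in response was not tested on the sum. Hist1h4d and Hist1h4n are at 2.02 to 6.94 and 4.35 to 11.1 scaled TPM in clone 2, where the pseudocount of 1 weighs more than at the WT levels. The count of 3 was 1 without any single one of 11 libraries, and 0 with rescaled TPM or in the groups without plasmid.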

How the results depend on the processing

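Clone 2 against WT gave 25 histone gene calls, which became 51 with TPM as deposited, 14 with a pseudocount of 5 and 14 in the untreated groups alone. Clone 1 against WT gave 3, which became 1 with a pseudocount of 5, 5 with no minimum change and 1 in the untreated groups. Clone 2 against clone 1 gave 20, which became 53 with TPM as deposited and 31 with no minimum change. MyoD in clone 2 gave 4, which became 10 with TPM as deposited, 2 with quantile normalization, 0 with rescaled TPM, 1 with a pseudocount of 5, 2 without a filter, 8 with no minimum change, 7 with library weights and 0 in the groups without plasmid. The difference in MyoD response between clone 2 and WT gave 3, which became 0 with rescaled TPM, 5 with library weights, 1 without the variance trend, 5 with only the groups compared and 0 in the groups without plasmid. Here and in the counts below, the share of all genes called under each alternative is not given. These counts therefore do not set the histone genes apart from other genes. The causes were not tested.

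Direction turned only with TPM as deposited among the alternatives run. Against WT the log2 changes in clone 2 were then 0.29 for Hist1h3h, 0.37 for Hist1h4j, 0.065 for Hist1h4n, 0.48 for Hist2h3c1 and 0.35 for Hist2h3c2. Against clone 1 they were 1.60 for Hist1h2be, 1.01 for Hist1h3b, 0.32 for Hist1h3h, 0.86 for Hist2h3c1 and 1.11 for Hist2h3c2.

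Leaving out each library in turn gave 23 to 26 calls for clone 2 against WT, 2 to 4 for clone 1 against WT, 18 to 21 for clone 2 against clone 1, 0 to 1 for MyoD in clone 1, 1 to 4 for MyoD in clone 2, 1 to 3 for the clone 2 response and 0 to 1 for the clone 1 response. It was 0 throughout for MyoD in WT and for the plasmid. The clone 1 MyoD count was 1 without clone 1 MyoD replicate 1 or 2, and the clone 1 response count was 1 without clone 1 MyoD replicate 2. The clone 2 response count was 1 without clone 2 untreated replicate 1 or 2, plasmid replicate 1 or 2, MyoD replicate 1, or MyoD and plasmid replicate 2, and without WT untreated replicate 1 or 2, MyoD replicate 2, plasmid replicate 1, or MyoD and plasmid replicate 1. Where 1 library of a group was left, it was assumed to vary like the others.

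Same-numbered replicates did not deviate together (r of -0.07 to 0.03 over 66 pairs of groups), so the numbers do not pair the samples, and with a replicate block the counts were again 25, 3, 20, 4 and 3, with 55 of 55 single calls kept.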
